A study of Mus musculus with 16 samples.

Results

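The genes described are 7 members of the B7-CD28 costimulation family and its close partners: the receptors Icos and Cd28, the ligands Icosl, Cd80, Cd86 and Cd274, and the activation protein gene Cd83. They were chosen by name, and all 7 were found among the 22180 genes that the array table could name, each by 1 probe set that carries its symbol alone. Their RNA was read in ILC2s (group 2 innate lymphoid cells), lymphocytes of mucosal tissue that make type 2 cytokines. The 16 single-colour arrays fall into 6 groups of mouse samples. For the lung there are 2 arrays of naive mice and 8 of mice given IL-33, a cytokine released by damaged epithelium, by the intranasal route: 3 at day 4, 3 at week 2 and 2 at 4 months. The remaining 6 arrays hold ILC2s from the lung-draining mediastinal lymph node (mLN) of mice treated in the same way, 3 at day 4 and 3 at week 2. The labels give C57BL/6J as the strain of the lung samples and no strain for the mLN samples. They do not give the age of the mice, how the cells were isolated, whether mice were pooled, or a naive mLN group. The labels call each array a biological replicate, and with 2 or 3 in a group the number of arrays sets the precision.

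ICOS and CD28 are receptors of lymphocytes that add a second signal to that of the antigen or cytokine receptor, mainly through phosphatidylinositol 3-kinase. ICOS binds ICOS ligand (Icosl), while CD28 shares CD80 and CD86 with the inhibitory receptor CTLA-4, and CD274 (PD-L1) binds the inhibitory receptor PD-1. The ligands are best known from antigen-presenting cells such as macrophages, dendritic cells and B cells. ILC2s are known to carry both ICOS and its ligand, and signalling between them supports ILC2 survival and cytokine output. In the mouse genome Cd28, Ctla4 and Icos lie next to each other, as do Cd274 and Pdcd1lg2, which encodes the second PD-1 ligand.

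The ILC2 marker genes that could be measured were present on all arrays. Of 13 listed ILC2 markers 11 were measured, while Il1rl1 and Areg were not. All 11 lay above the 40th percentile of signal, a log2 value of 3.58, on each of the 16 arrays. The 4 naive and 4-month arrays differed from the other 12 in spread. Their log2 signals had an interquartile range of 2.35 to 2.64, against 2.92 to 3.06 elsewhere, and their replicates correlated at r = 0.937 and r = 0.947 across genes, against 0.977 or more within the other groups. Transcripts of other cells differed between arrays too. The mean log2 signal of 14 macrophage markers was 5.84 and 5.91 on day 4 lung replicates 1 and 2 and 5.31 on week 2 lung replicate 3, against 3.58 to 4.90 on the other 13 arrays. For 8 T cell markers the naive arrays had means of 6.68 and 6.47, and the other 14 arrays had means of 4.63 to 5.07. Each array measured bulk RNA, in which fewer cells of a type and less RNA per cell cannot be told apart.

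In the lung Cd83 had the largest rise at day 4, Icosl and Cd80 rose less, and Icos itself did not pass in any comparison. From day 4 to 4 months Cd80 fell most, with a log2 change of -1.35 beside -1.07 for Cd83. Genes were called at a limma adjusted p under 0.05 over all 22180 genes. Against naive lung, 3 of the 7 members were called at day 4, all higher, where 16.6% of all genes were called and 10.8% were called higher. At week 2 it was 1 member, higher, against 9.62% of all genes called. At 4 months it was 0 of 7 in limma, with 2 at an unadjusted p under 0.05, against 1.97% of all genes called. With array weights, a fit in which noisier arrays count for less, it was 0, against 0.018% of all genes. From day 4 to 4 months in the lung, 4 members were called, all lower at 4 months, where 25.6% of all genes were called and 16.6% were called lower. The median change of the members in that comparison was -0.93, while that of all genes was 0.04. In the same comparison 5 of 6 NK cell markers rose, with array means of 3.53 to 3.78 at day 4 and 4.28 and 4.97 at 4 months, and of 11 ILC2 markers 4 fell and 1 rose. Their part in the members' fall was not tested. Between week 2 and day 4 in the lung 1 member was called, against 1.81% of all genes, and between 4 months and week 2 it was 1, against 16.4%. These lung comparisons share arrays with each other.

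The comparisons with the mLN held fewer calls. Between mLN and lung 1 member was called at day 4, where 2.33% of all genes were. At week 2 it was 0 of 7 in limma, with 2 at an unadjusted p under 0.05, against 0.78% of all genes. With array weights it was 1 at week 2, against 3.12% of all genes. Between week 2 and day 4 in the mLN it was likewise 0 of 7 in limma, with 2 at an unadjusted p under 0.05, against 1.71%. With array weights it was 1, against 2.84% of all genes. The change from day 4 to week 2 differed between the tissues for 1 member, where this interaction test called 0.18% of all genes.

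**Figure D1:**
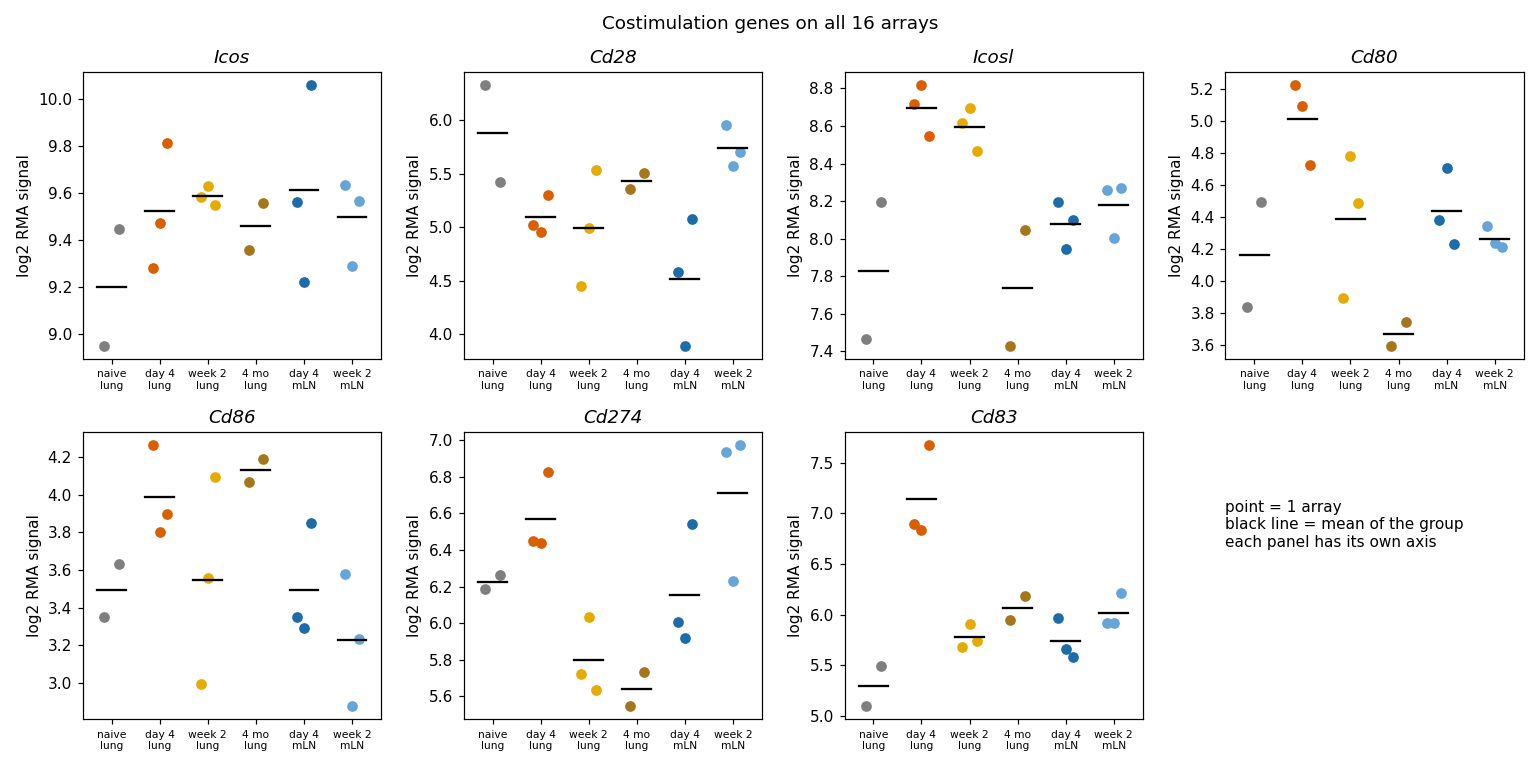
Log2 RMA signal (vertical axes, 1 scale per gene) of the 7 genes on all 16 arrays, by group (horizontal axes), with 1 point per array and a black line at the group mean. Icos stays between 8.95 and 10.06, with each group overlapping its neighbour in the order of means and week 2 lung above both naive arrays. Cd83 is highest on the 3 day 4 lung arrays at 6.84 or more.

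Icos, the receptor of ICOS ligand, had a narrow range of group means. Its log2 signal was 8.95 and 9.45 on the naive lung arrays, 9.28, 9.47 and 9.81 at day 4, 9.58, 9.63 and 9.55 at week 2, and 9.36 and 9.56 at 4 months. In the mLN it was 9.56, 9.22 and 10.06 at day 4 and 9.64, 9.29 and 9.57 at week 2. The order of the group means ran from mLN day 4 over lung week 2, lung day 4, mLN week 2 and lung 4 months to naive lung, and each group overlapped its neighbour in that order. All 3 week 2 lung arrays lay above both naive arrays, a separation found in either direction for 42.4% of all genes. The means spanned 0.41, from 9.20 ± 0.35 (SD, n = 2) in naive lung to 9.61 ± 0.42 (SD, n = 3) in mLN at day 4. Against naive lung the limma difference was 0.32 ± 0.24 (SE) at day 4, with a 95% interval of -0.18 to 0.83, 0.39 with an interval of -0.12 to 0.89 at week 2, and 0.26 with an interval of -0.29 to 0.81 at 4 months. Between mLN and lung it was 0.09 at day 4, with an interval of -0.36 to 0.54, and -0.09 at week 2, with an interval of -0.54 to 0.36. A rise of Icos by more than 0.89, on the log2 scale, lay outside each of these intervals.

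Cd28, the related receptor for CD80 and CD86, had its highest means in naive lung and in the mLN at week 2. It stood at 6.33 and 5.42 in naive lung, at 5.02, 4.96 and 5.31 at day 4, at 4.45, 5.0 and 5.53 at week 2 and at 5.36 and 5.51 at 4 months. Its mLN values were 4.58, 3.89 and 5.08 at day 4 and 5.96, 5.57 and 5.70 at week 2. Both mLN groups lay apart from each other, and week 2 was higher on all 3 arrays. That difference was 1.23 ± 0.30 (SE), or 2.34-fold, with a limma adjusted p of 0.0525 against the threshold of 0.05. It passed in a fit of the 2 mLN groups alone (adjusted p = 0.0420) and with array weights (adjusted p = 0.0228). Against naive lung Cd28 differed by -0.78 ± 0.34 at day 4 and -0.88 ± 0.34 at week 2, with limma adjusted p values of 0.124 and 0.111. These differences depended on which naive array was kept. Without replicate 2 they were -1.24 and -1.34, against the single higher naive array at 6.33. The other naive array, at 5.42, lay nearer the means of 5.09 at day 4 and 4.99 at week 2. T cells carry CD28. Against naive lung, 6 of 8 measured T cell markers were called lower at day 4 and 5 of 8 at week 2. Of all genes 16.6% and 9.62% were called in these comparisons, in either direction. The part of T cell transcripts in these 2 differences of Cd28 was not tested. In the mLN the T cell marker mean was 4.81, 4.76 and 4.88 at day 4 and 4.94, 5.0 and 4.63 at week 2, and its 8 genes did not pass between these groups in limma.

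Among the ligands, Icosl, Cd80 and Cd274 were the 3 members whose start sites are held in the table of RefSeq promoters used here (build GRCm38.p6). Each was lower at 4 months than at day 4 in the lung, as was Cd83. Their sequences are shown because these were the members held in that table. Each line gives the 250 bases upstream of 1 annotated start on the plus strand, 5′ to 3′, and capitals mark matches to the motifs searched. For Cd80 and Cd274 the RefSeq gene begins upstream of the window shown, while for Icosl it begins directly after it.
Icosl, chr10:78069118-78069367: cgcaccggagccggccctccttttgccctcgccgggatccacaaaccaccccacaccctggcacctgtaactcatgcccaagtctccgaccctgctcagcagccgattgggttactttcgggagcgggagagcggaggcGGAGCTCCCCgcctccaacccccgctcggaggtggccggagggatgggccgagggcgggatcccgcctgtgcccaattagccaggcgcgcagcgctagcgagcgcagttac
Cd80, chr16:38458683-38458932: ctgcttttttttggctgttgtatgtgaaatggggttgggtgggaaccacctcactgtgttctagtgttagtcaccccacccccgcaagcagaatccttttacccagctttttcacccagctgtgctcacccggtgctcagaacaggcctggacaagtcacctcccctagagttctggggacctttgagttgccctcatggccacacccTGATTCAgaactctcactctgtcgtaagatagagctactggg
Cd274, chr19:29367188-29367437: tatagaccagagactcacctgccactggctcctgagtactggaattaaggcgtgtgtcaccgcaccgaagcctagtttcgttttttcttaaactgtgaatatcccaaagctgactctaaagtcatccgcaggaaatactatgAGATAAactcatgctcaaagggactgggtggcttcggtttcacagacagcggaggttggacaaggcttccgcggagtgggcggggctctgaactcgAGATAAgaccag
The 5 motifs searched on both strands were the AP-1 site TGANTCA, the GATA site AGATAA, the STAT site TTCNNNGAA, the IRF element (GAAA, any 2 bases, GAAA) and the NF-kB consensus. Icosl held 1 match to the NF-kB consensus, GGAGCTCCCC, on the minus strand from -111 to -102, a motif present in 7.25% of the 32851 windows of this length. Cd80 held the AP-1 letters TGATTCA from -42 to -36, which read as a match on both strands and occur as a motif in 6.75% of windows. Cd274 held AGATAA at -108 and at -12, a motif in 9.99% of windows. The matches did not overlap each other, and no motif was shared by the 3 windows. The STAT and IRF letters, in 7.02% and 2.98% of all windows, were not in these windows.

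Icosl encodes the ligand of ICOS. Its log2 signal was 7.47 and 8.19 in naive lung, 8.72, 8.82 and 8.54 at day 4, 8.62, 8.70 and 8.47 at week 2 and 7.43 and 8.05 at 4 months. The mLN arrays had 8.19, 7.94 and 8.10 at day 4 and 8.26, 8.0 and 8.27 at week 2. The lung arrays of day 4 and week 2 were the 6 highest, and did not overlap any other group. Icosl rose at day 4 by 0.86 ± 0.23 (SE, limma adjusted p = 0.0161), or 1.82-fold, and at week 2 by 0.76 ± 0.23 (adjusted p = 0.0439). At 4 months it was lower again, with a difference of -0.96 ± 0.23 from day 4 (limma adjusted p = 0.00638) and of -0.86 ± 0.23 from week 2 (adjusted p = 0.0190). At 4 months it differed from naive lung by -0.09, with an interval of -0.62 to 0.43. Each of these 4 calls was lost when quantile normalization was repeated on the deposited values, which evens out the narrower signal range of the naive and 4-month arrays, with differences of 0.60, 0.52, -0.53 and -0.45 in that order. Naive replicate 1 carried much of the rise: without it the differences were 0.50 at day 4 and 0.40 at week 2, with limma adjusted p values of 0.196 and 0.347. Without 4-month replicate 1 the falls were -0.65 and -0.55, with limma adjusted p values of 0.128 and 0.264. The day 4 rise was also lost without day 4 replicate 2 (0.80, limma adjusted p = 0.0552) and in the fit of the compared groups alone. The week 2 rise was lost in 19 of 26 alternative settings. The fall from week 2 was lost without week 2 replicate 1 (-0.84, limma adjusted p = 0.0512) or 2 (-0.80, adjusted p = 0.0615). It was also lost with array weights and in the fit of the compared groups alone. When the 3 arrays with most macrophage transcripts were left out, 1 day 4 lung array remained. The differences were then 0.71 between day 4 and naive lung, -0.81 between 4 months and day 4 and -0.92 between 4 months and week 2. The last of these was no longer called, and the others rest on the single day 4 array.

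Icosl had lower means in the mLN than in the lung at both times, and neither difference was called. The mLN differed from the lung by -0.61 ± 0.20 at day 4 (limma adjusted p = 0.174) and by -0.42 ± 0.20 at week 2 (adjusted p = 0.544). The groups did not overlap at either time. The day 4 difference passed with array weights (-0.65, limma adjusted p = 0.0253) and when the naive and 4-month arrays were kept out of the fit (adjusted p = 0.0270). Epithelial cells can carry ICOS ligand, and the mean of 5 epithelial markers was 4.49 and 4.56 in naive lung, 5.09 to 5.81 at day 4, 5.01 to 6.01 at week 2, 4.58 and 4.63 at 4 months and 3.76 to 5.16 in the mLN. Among these markers 1 of 5 was called higher at day 4 and 2 of 5 at week 2, against naive lung. Of all genes 10.8% were called higher at day 4, and 9.62% were called in either direction at week 2. The part of epithelial transcripts in the Icosl values was not tested. At day 4 Icosl was 8.72, 8.82 and 8.54 on replicates 1, 2 and 3, beside epithelial means of 5.81, 5.48 and 5.09.

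Cd80, a ligand shared by CD28 and CTLA-4, was highest in day 4 lung and lowest at 4 months. It stood at 3.84 and 4.49 in naive lung, 5.23, 5.09 and 4.73 at day 4, 3.89, 4.78 and 4.49 at week 2 and 3.59 and 3.74 at 4 months. In the mLN it was 4.38, 4.70 and 4.23 at day 4 and 4.34, 4.24 and 4.21 at week 2. The day 4 lung arrays lay above those of every other group except week 2 lung, whose replicate 2 (4.78) was above day 4 replicate 3 (4.73). The 4-month arrays lay below all others. Cd80 rose at day 4 against naive lung by 0.85 ± 0.26 (SE, limma adjusted p = 0.0329). Between day 4 and 4 months it fell by 1.35 ± 0.26 on the log2 scale (limma adjusted p = 0.00163), a 2.54-fold difference that passed with array weights and with quantile normalization. The rise at day 4 was lost with array weights (0.90, limma adjusted p = 0.136) and without naive replicate 1 (0.52, adjusted p = 0.271), day 4 replicate 1 (0.75, adjusted p = 0.108) or day 4 replicate 2 (0.81, adjusted p = 0.0856). It was also lost in the fit of the compared groups alone (0.85, limma adjusted p = 0.103).

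Macrophages can express CD80 and CD86. The day 4 lung arrays with the most macrophage transcripts had the most Cd80, while in the other lung groups the 2 did not run in the same order. Of 14 macrophage markers 3 rose at day 4 against naive lung and 3 were lower in the mLN than in the lung at day 4. Of all genes 10.8% rose in the former comparison, and 2.33% were called in either direction in the latter. On day 4 replicates 1, 2 and 3 Cd80 was 5.23, 5.09 and 4.73, beside macrophage means of 5.84, 5.91 and 4.40. In naive lung Cd80 was 3.84 and 4.49 beside means of 4.90 and 4.18, and at 4 months 3.59 and 3.74 beside 4.90 and 4.50. On the week 2 lung arrays it was 3.89, 4.78 and 4.49 beside 4.16, 4.00 and 5.31. When these first 2 arrays and week 2 lung replicate 3 were left out, which left 1 day 4 lung array assumed to vary like the other groups, Cd80 differed from naive lung by 0.56 (limma adjusted p = 0.456) and between 4 months and day 4 by -1.06 (adjusted p = 0.109). With the macrophage mean as a covariate these were 0.81 (limma adjusted p = 0.0943) and -1.31 (adjusted p = 0.00579). Cd86, the other ligand of CD28 and CTLA-4, was a dim probe set that lay above the 40th percentile of signal in 2 of 6 group means, those of lung at day 4 and 4 months. Its values ran from 2.88 on an mLN week 2 array to 4.26 on a day 4 lung array, and every group overlapped its neighbour in the order of means. It was 3.35 and 3.63 in naive lung, 4.26, 3.8 and 3.90 at day 4, 2.99, 3.56 and 4.10 at week 2 and 4.07 and 4.19 at 4 months. In lymph node it stood at 3.35, 3.29 and 3.85 at day 4 and 3.58, 2.88 and 3.23 at week 2. The largest of its differences against naive lung was 0.64 ± 0.31 at 4 months (SE, limma adjusted p = 0.312), and it was not called in any of the 10 comparisons. Over the 16 arrays, which share 1 normalization, Cd86 correlated with the macrophage marker mean at r = 0.64, Cd80 at 0.31 and Cd83 at 0.35.

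**Figure D2:**
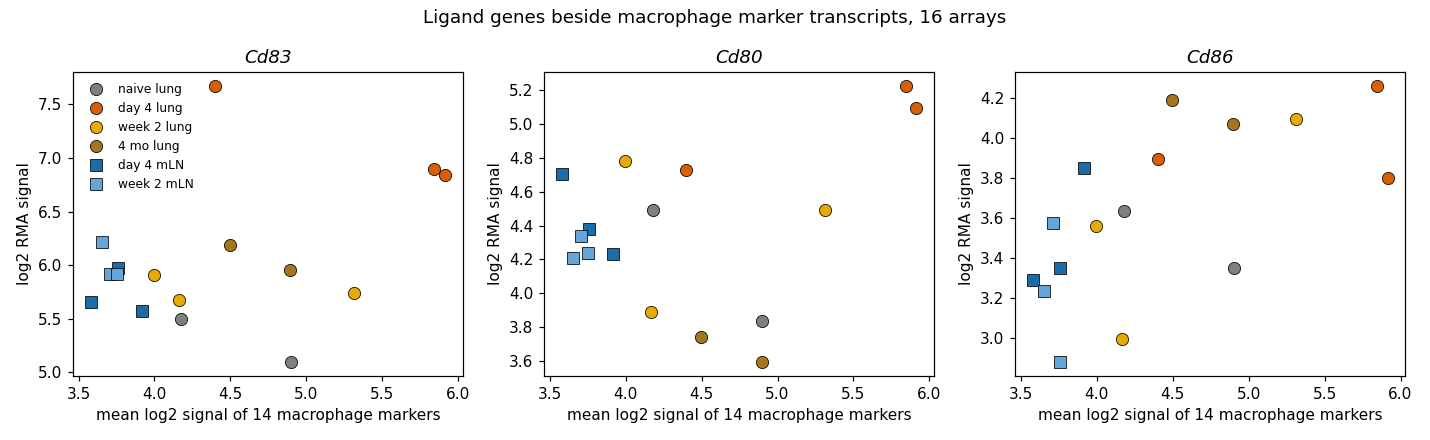
Log2 RMA signal of Cd83, Cd80 and Cd86 (vertical axes) against the mean log2 signal of 14 macrophage markers (horizontal axis) on the 16 arrays, with circles for lung and squares for mLN. The array highest in Cd83, day 4 lung replicate 3 at 7.67, has a macrophage mean of 4.40, while Cd80 is highest on the 2 arrays with means of 5.84 and 5.91.

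Cd274, which encodes PD-L1, had its lowest means in the lung at week 2 and 4 months and its highest in the mLN at week 2. Its log2 signal was 6.19 and 6.27 in naive lung, 6.45, 6.43 and 6.82 at day 4, 5.72, 6.03 and 5.63 at week 2 and 5.55 and 5.74 at 4 months. The mLN values were 6.01, 5.92 and 6.54 at day 4 and 6.93, 6.23 and 6.97 at week 2. In the lung, week 2 and 4 months lay below both naive and day 4 arrays without overlap. The fall from day 4 to 4 months was -0.93 ± 0.25 (SE, limma adjusted p = 0.0123), and was lost with array weights (-0.88, adjusted p = 0.0924), with quantile normalization (-0.65, adjusted p = 0.0762) and without 4-month replicate 1 (-0.83, adjusted p = 0.107). With the 3 macrophage-rich arrays left out it was -1.18 (limma adjusted p = 0.0687). From day 4 to week 2 in the lung the difference was -0.77 ± 0.22 (limma adjusted p = 0.106), and in the mLN it was 0.56 ± 0.22 in the other direction (adjusted p = 0.389). The test of the difference between these 2 changes gave 1.33 ± 0.31 with a limma adjusted p of 0.120. At week 2 Cd274 was higher in the mLN than in the lung by 0.91 ± 0.22, or 1.88-fold, with all 3 mLN arrays above the 3 lung arrays and a limma adjusted p of 0.0720. Without mLN week 2 replicate 2 it was 1.15 and passed (limma adjusted p = 0.0248). With array weights the week 2 tissue difference (0.84, adjusted p = 0.0258), the fall from day 4 to week 2 in the lung (-0.74, adjusted p = 0.0284) and the difference between the 2 changes (1.25, adjusted p = 0.0475) passed in limma.

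Cd83 encodes a surface protein of activated dendritic cells and lymphocytes that holds CD86 and MHC class II at the cell surface. It stood at 5.10 and 5.49 in naive lung, at 6.90, 6.84 and 7.67 at day 4, at 5.68, 5.91 and 5.74 at week 2 and at 5.95 and 6.18 at 4 months. In the mLN it was 5.97, 5.66 and 5.58 at day 4 and 5.92, 5.91 and 6.21 at week 2. The 3 day 4 lung arrays were the highest of all 16, and the lowest of them lay 0.65 above the highest array of the next group. The naive arrays were the 2 lowest. Cd83 rose at day 4 by 1.84 ± 0.24 (SE, limma adjusted p = 0.000104), or 3.58-fold. By week 2 it differed from day 4 by -1.36 ± 0.21 (limma adjusted p = 0.00184), the only member called between these times, and the mLN differed from the lung at day 4 by -1.40 ± 0.21 (adjusted p = 0.00106), again the only member called.

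At the later lung times the difference of Cd83 from naive lung was not called. At week 2 it was above naive lung by 0.48, with an interval of -0.02 to 0.99, and at 4 months by 0.77 ± 0.26, with an interval of 0.22 to 1.33 and a limma adjusted p of 0.132. At both times its arrays lay above both naive arrays. Of the 7 members 4 did not overlap naive lung at week 2 and 4 at 4 months, in either direction, where 42.4% and 34.6% of all genes did not. From day 4 to 4 months Cd83 fell by 1.07 ± 0.24 on the log2 scale (limma adjusted p = 0.00449), a call lost with quantile normalization (-0.71, adjusted p = 0.0505) and without 4-month replicate 1 (-0.95, adjusted p = 0.0583). The change from day 4 to week 2 differed between the tissues by 1.64 ± 0.30 (limma adjusted p = 0.0328), falling in the lung by 1.36 and standing at 0.28 ± 0.21 in the mLN. That call was lost on leaving out any 1 of week 2 lung replicates 1, 2 and 3, mLN day 4 replicates 2 and 3, or mLN week 2 replicates 1, 2 and 3, with limma adjusted p values up to 0.127. When the 3 macrophage-rich arrays were left out, Cd83 differed between day 4 and naive lung by 2.38 (limma adjusted p = 0.000827) and between week 2 and day 4 by -1.88 (adjusted p = 0.0140). These values rest on a single day 4 lung array, replicate 3, which is the highest in Cd83. The mean of 10 dendritic cell markers was 4.36 to 4.51 at day 4 in the lung and 4.28 to 4.42 at day 4 in the mLN, and the 10 did not pass between these groups in limma. Against naive lung, with means of 4.19 and 4.37, 2 of the 10 rose and 1 fell at day 4, where 16.6% of all genes were called. Between day 4 and week 2 in the lung 1 fell, where 1.81% of all genes were called. The part of dendritic cell transcripts in the Cd83 values was not tested.

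**Figure D3:**
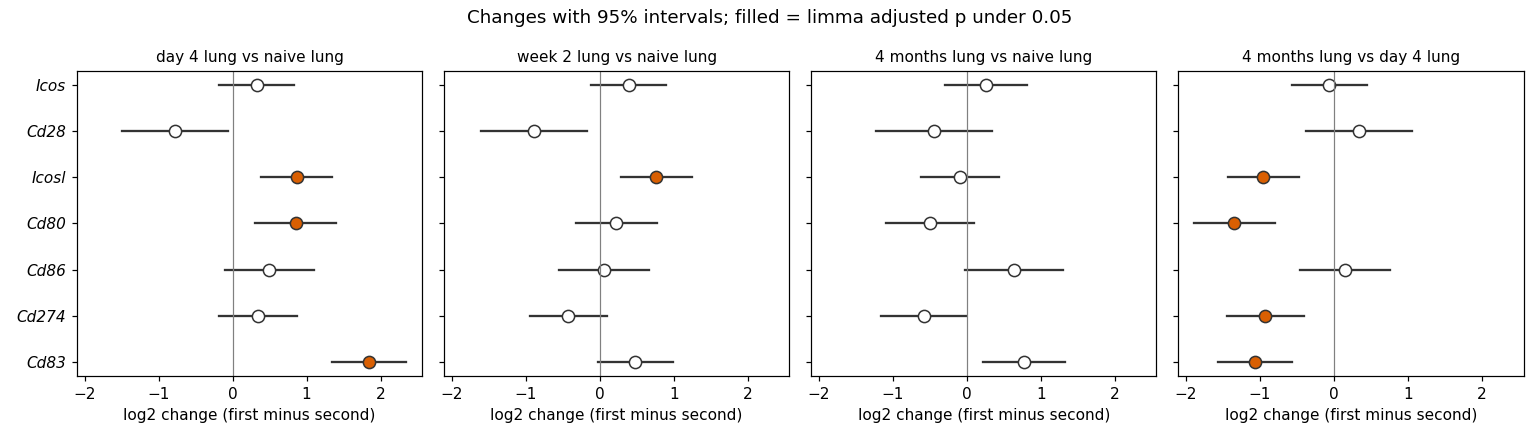
Log2 change of each member (horizontal axes, first group minus second) with its 95% interval in 4 lung comparisons, filled where the limma adjusted p is under 0.05. Cd83, Icosl and Cd80 are filled at day 4, Icosl alone at week 2, none at 4 months against naive, and Icosl, Cd80, Cd274 and Cd83 between 4 months and day 4.

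Of the other B7-CD28 family genes, the inhibitory receptor genes Ctla4 and Pdcd1 were highest on the 3 day 4 lung arrays, as Cd83 was. Of 10 listed genes 3 rose and 1 fell at day 4 against naive lung, with a median of -0.08 beside -0.06 over all genes, where 10.8% of all genes rose and 16.6% were called in either direction. Ctla4, the competitor of CD28 for CD80 and CD86, rose by 2.47 ± 0.39 (SE, limma adjusted p = 0.000585), from 4.84 and 4.73 to 6.69, 7.02 and 8.05. Pdcd1, which encodes PD-1, rose by 1.43 ± 0.32, and the inhibitory receptor Btla by 1.13 ± 0.22, while Cd276, which encodes B7-H3, fell by 0.79 on the log2 scale. The PD-1 ligand gene Pdcd1lg2 stood at 0.63 ± 0.21 (limma adjusted p = 0.0516). By week 2 Ctla4 was at 4.85, 4.58 and 4.40 in the lung, a difference of -2.64 ± 0.35 from day 4, and it was the only gene of this list called between these times. At day 4 the mLN was lower than the lung in Ctla4 (-2.63 ± 0.35, limma adjusted p = 0.00033) and Pdcd1 (-1.92 ± 0.28, adjusted p = 0.000847), and the other 8 did not pass. Between 4 months and day 4, 4 of 10 fell (Ctla4, Pdcd1, Btla and Pdcd1lg2) and 1 rose (Cd276), where 16.6% of all genes fell. With array weights 2 fell and 1 rose, and with quantile normalization likewise, while 1 fell without the 3 macrophage-rich arrays.

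**Figure D4:**
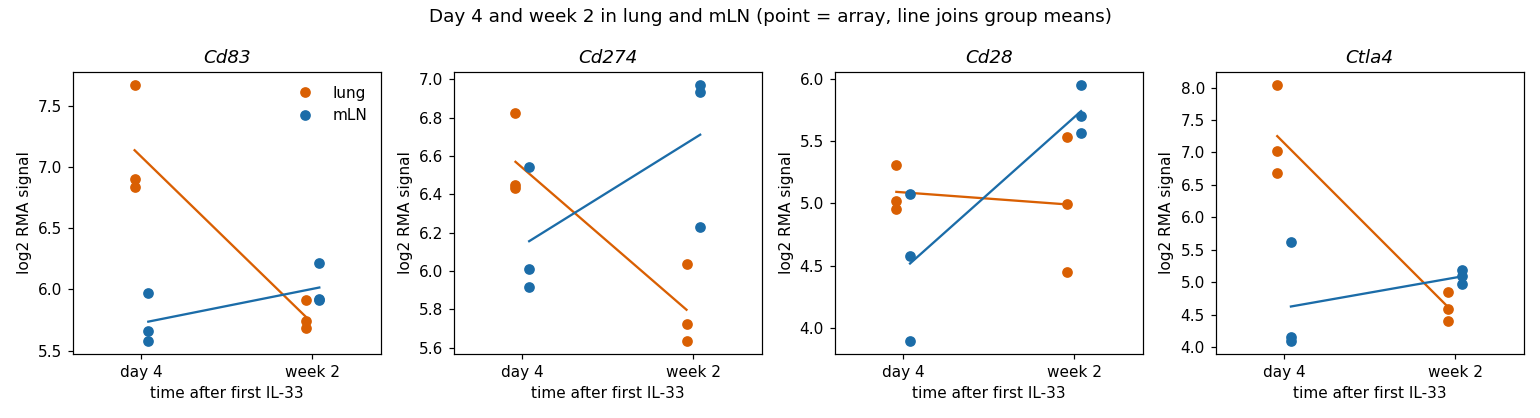
Log2 RMA signal (vertical axes) of Cd83, Cd274, Cd28 and Ctla4 at day 4 and week 2 (horizontal axes) in lung (orange) and mLN (blue), with 1 point per array and a line between the group means. Cd83 and Ctla4 fall in the lung by 1.36 and 2.64, and the mLN means of Cd274 and Cd28 are higher at week 2 by 0.56 and 1.23.

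Among genes of the signalling path below ICOS and CD28, 19 of 22 listed were measured. Against naive lung 2 of 19 rose at day 4, near the 10.8% of all genes that rose. The same 2 rose at week 2, where 9.62% of all genes were called in either direction. They were Bcl10, an adaptor that leads to NF-kB, by 1.38 ± 0.21 and 1.00 ± 0.21, and Pik3ca, a catalytic subunit of phosphatidylinositol 3-kinase, by 0.92 ± 0.22 and 0.90 ± 0.22. At 4 months against day 4, 7 fell and 1 rose, with a median of -0.52 beside 0.04 over all genes, of which 16.6% fell. The phosphatases Ptpn6 and Ptpn11 differed by -1.36 ± 0.17 and -1.28 ± 0.20 and the kinase Tbk1, which binds the tail of ICOS, by -1.23 ± 0.18, while Prkcq, the kinase of the CD28 path to NF-kB, rose by 1.19 ± 0.26. With array weights 5 fell and 1 rose, and with quantile normalization likewise. With centred medians 12 fell and 1 rose, and 5 rose at day 4 against naive lung, and without the 3 macrophage-rich arrays 4 fell. Between 4 months and week 2, 6 of 19 fell, again led by Ptpn11, Tbk1 and Ptpn6, where 16.4% of all genes were called in either direction. In that comparison 4 fell with array weights, 4 fell and 1 rose with quantile normalization, and 7 fell with centred medians. Without the 3 macrophage-rich arrays 4 fell. Ptpn6 was the 1 gene of the list called between 4 months and naive lung (-1.17 ± 0.19, limma adjusted p = 0.00597), where 1.97% of all genes were called. That call did not hold with array weights (limma adjusted p = 0.335).

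Of 10 measured genes that regulate the RNA or protein of the members, 2 rose and 1 fell at day 4 against naive lung, where 16.6% of all genes were called. Irf4, a transcription factor of activated lymphocytes, rose by 2.89 ± 0.28 (SE, limma adjusted p = 7.16e-06) and Rc3h2, a relative of the RNA-binding repressor of Icos, by 0.55 ± 0.18. Cmtm6, which keeps PD-L1 at the cell surface, fell by 1.13 on the log2 scale, and stood at 9.31 ± 0.11 (SD, n = 2) in naive lung and 8.18 ± 0.21 (SD, n = 3) at day 4. Irf4 was 7.72, 7.57 and 8.45 on the day 4 lung arrays, highest on replicate 3 as were Cd83 and Ctla4. At week 2 Irf4 and Rc3h2 were above naive lung by 1.19 ± 0.28 and 0.61 ± 0.18. Irf4 was lower at week 2 than at day 4 (-1.70 ± 0.25) and in the mLN than in the lung at day 4 (-0.97 ± 0.25, limma adjusted p = 0.0481), the latter lost with centred medians (adjusted p = 0.0552) and with quantile normalization (adjusted p = 0.0641). From day 4 to 4 months, 4 of 10 fell, among them Irf4 (-2.82 ± 0.28) and Rc3h2 (-0.74 ± 0.18), where 16.6% of all genes fell. The count was 2 with array weights, 1 with quantile normalization and 1 without the macrophage-rich arrays.

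The genes whose values ran most like those of each member over the 16 arrays were found among 9715 genes with at least the median spread. Icosl was followed most closely by Endod1 (r = 0.94), Myo9a and Zfyve16 (both r = 0.92), and Cd80 by Dstn, an actin-severing protein gene (r = 0.94), Fdps (r = 0.91) and Lamp2 (r = 0.90). Endod1 had its highest means in the same lung groups as Icosl, 6.47 at day 4 and 6.11 at week 2, against 4.69 in naive lung and 5.05 or less in the other groups. For Cd83 the closest were Atp1b2 (r = 0.87), Plk3 (r = 0.87) and Adgrg1 (r = 0.86). Icos, which varied least between groups, was followed by Arid4a (r = 0.83), Ttc1, Safb, Ccdc88c and Ints4, the last at r = 0.78. Cd274 was followed by Arhgap25, Prkch and Cd3g (r = 0.80 to 0.82), Cd28 by Snora21 (r = 0.85), Crb1 and Ddo (both r = 0.79), and Cd86 by Thbs1 (r = 0.85), Sprr2f and Tlr13 (both r = 0.74). Some of these were dim: the highest group means of Ddo and Sprr2f were 3.12 and 3.18, below the 40th percentile of signal at 3.58. Tlr13 lay above that level only in lung at 4 months (4.10). Among the members themselves the closest pair was Icosl and Cd80 (r = 0.72), and Icos and Icosl ran at r = 0.43. These values describe arrays that share groups and 1 normalization.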

How the data were processed

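RNA of mouse ILC2s was measured on 16 single-colour Affymetrix arrays. The authors deposited 1 table of log2 signals, made by RMA in Affymetrix Expression Console per the submitters' processing notes. Software versions: not given in the sources used here, nor is a genome build, and RMA makes arrays alike in distribution only before probes are summarised. Of 41345 probe sets, 23521 carry 1 gene symbol, 1814 several and 16010 none. Each gene was read by its probe set of highest mean, which gave 22180 genes.

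All 16 arrays entered 1 limma fit (limma 3.58.1, R 4.3.3) of 6 groups without a block, tested on simulated data first. P-values were adjusted over all 22180 genes by Benjamini-Hochberg, and an adjusted p under 0.05 counts as called. Changes are differences of mean log2 signal, first group minus second, and folds are 2 to that power; RMA can compress them. The 7 members, the related gene lists and the marker lists were chosen with earlier results of these data known. All members were named, with up to 4 called genes of largest change per list, and Ctla4, Pdcd1 and Pdcd1lg2. The genes most alike to a member were those of highest Pearson r over 16 arrays. Alternatives were centred medians, repeated quantile normalization, a filter on dim genes, limma trend, array weights, the compared groups alone, the mean of probe sets, a replicate block and each array left out. The fits without 3 lung arrays high in macrophage transcripts, with the macrophage mean as a covariate, and of the 12 arrays of groups with 3 replicates were chosen after seeing the data. Promoter windows are RefSeq's, of build GRCm38.p6. Figures were drawn with matplotlib 3.10.9.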

Additional observations from a re-analysis of the deposited data

Results flagged for a closer look

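Of the members and listed related genes, 2 were called in the limma interaction test of the change from day 4 to week 2. This test asks whether that change differed between the tissues, and over all 22180 genes it called 40, or 0.18%. For Cd83 the change in the mLN minus that in the lung was 1.64 ± 0.30 (SE, limma adjusted p = 0.0328). For Ctla4 it was 3.10 ± 0.50 (SE, limma adjusted p = 0.0149), with mLN values of 4.09, 4.16 and 5.63 at day 4 and 5.19, 4.97 and 5.10 at week 2. The groups hold at most 3 arrays, too few to test a single array as an outlier.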

How the results depend on the processing

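The calls of Cd83 between day 4 and naive lung, between week 2 and day 4 in the lung, and between mLN and lung at day 4 held in every alternative run that gives them. Their ranges were 1.57 to 2.38, -1.88 to -1.09 and -2.01 to -1.13. No called change of a member took the other sign. The counts of members called are given with the share of all genes called in the same setting as a percentage in brackets. Smaller shifts of a count are not all listed. Between day 4 and naive lung the count (3, 16.6%) was 1 in the fit of the compared groups alone (6.22%). In that comparison Icosl was also lost with quantile normalization, and Cd80 with array weights and with the macrophage covariate. The fit without the 3 arrays with most macrophage transcripts left 1 day 4 lung array, so its counts of members are not given here. Between week 2 and naive lung (1, 9.62%) it was 0 with quantile normalization (5.22%), array weights (3.28%), the compared groups alone (2.37%) and the macrophage covariate (8.99%). Between week 2 and day 4 in the lung (1, 1.81%) it was 3 with array weights (6.35%). Between 4 months and day 4 (4, 25.6%) it was 1 with quantile normalization (15.2%), and Cd274 was lost with array weights. Between 4 months and week 2 (1, 16.4%) it was 2 with centred medians (19.9%). It was 0 there with quantile normalization (6.41%), array weights (5.39%) or the compared groups alone (7.76%). Between the mLN groups (0, 1.71%) it was 1 with centred medians (1.61%), without dim genes (2.51% of 16230), with limma trend (1.82%) and with array weights (2.84%). There it was also 1 with the compared groups alone (1.86%), the macrophage covariate (1.72%) and the 12 arrays (2.51%). Between the tissues at day 4 (1, 2.33%) it was 2 with array weights (4.23%) and with the 12 arrays (3.57%). With array weights it was 1 between the tissues at week 2 (3.12%; main value 0, 0.78%) and 2 for the interaction (0.924%; main value 1, 0.18%). Leaving out 1 array at a time gave counts of 1 to 4 at day 4, 0 to 2 at week 2 and 0 to 0 at 4 months against naive lung, 1 to 1 between week 2 and day 4, 1 to 4 between 4 months and day 4, 0 to 2 between 4 months and week 2, 0 to 1 between the mLN groups, 1 to 1 and 0 to 1 between tissues at day 4 and week 2, and 0 to 1 for the interaction.

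The deviations of same-numbered arrays from different groups correlated at -0.10 to 0.18 over 36 pairs, with a median of 0.03 and 2 above 0.1. For arrays of different numbers the range was -0.17 to 0.14 over 70 pairs, with a median of -0.02 and 1 above 0.1. Lung and mLN arrays of the same time were not examined apart, so a pairing between them was not tested. With the replicate number as a block, 2 members were called between 4 months and week 2 (Icosl and Cd80) and 1 between the mLN groups (Cd28, limma adjusted p = 0.0249), and Cd28 was called lower against naive lung at both day 4 and week 2 (-0.94 and -1.04, limma adjusted p = 0.0468 and 0.0461).

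Centring each array on its median moved the median of all genes by -0.20 between 4 months and day 4 and by -0.14 between 4 months and week 2, and by 0.10 or less elsewhere. Groups of 2 arrays, the dim Cd86 probe set and the narrower signal range of the naive and 4-month arrays limit every comparison with naive lung and with 4 months. Array weights were 0.44 for both of these groups.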
